A study of Mus musculus with 2 samples.

Results

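The 8 genes described here encode proteins of the podocyte slit diaphragm and of the foot processes that carry it: Nphs1, Kirrel2, Kirrel, Cd2ap, Magi2, Synpo, Podxl and Ptpro. They were listed by name, with earlier results of these data known, and are 8 of 21755 protein-coding genes in the GENCODE M21 annotation of mm10. CTCF binding had been measured by chromatin immunoprecipitation and sequencing (ChIP-seq) in kidney tissue of newborn B6NCrl mice, 0 days after birth. The 2 libraries form 1 group, biological replicates 1 and 2, and the labels give both the same biosample and the same donor, so the spread between them may be technical. No second genotype, treatment, age or tissue was available for comparison, the sex was not collected, and no test between groups was possible. A window was the span of a gene plus 50 kb on each side. The authors' optimal list, thresholded for reproducibility, placed the summits of 60 of its 65482 peaks in the 8 windows.

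Podocytes wrap the glomerular capillaries with interlocking foot processes, and the slit diaphragm is the cell junction that bridges the gaps between them and keeps plasma proteins out of the urine. Its extracellular part is built from immunoglobulin-superfamily proteins, its cytoplasmic part from adaptors that tie it to actin. CTCF is a zinc-finger DNA-binding protein that stops cohesin as it extrudes chromatin loops, most often where its motifs face each other. Binding in whole kidney comes from all its cell types, and podocytes are a small share of them. A peak therefore could not be assigned to podocytes, and peaks give no expression level with which to check the cell type.

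The lists hold no read counts, so the depth is unknown. Signal is used here only as a percentile of the optimal list, where 100 is the strongest, or as a rank within 1 library's own list of 300000 relaxed peaks, where 1 is the strongest. The signal is the authors' own value for each peak. A library's upper set is its 65482 highest-ranked peaks, as many as the optimal list holds. Of the 60 window peaks, 49 (81.7%, 95% Wilson interval 70.1 to 89.4) belonged to both libraries' upper sets, against 78.6% of all optimal peaks. Replicate 2 had no peak at 1 of the 60, in Magi2. Over the other 59 the library ranks had a Spearman's rho of 0.926. This describes peaks already selected for reproducibility.

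**Figure D1:**
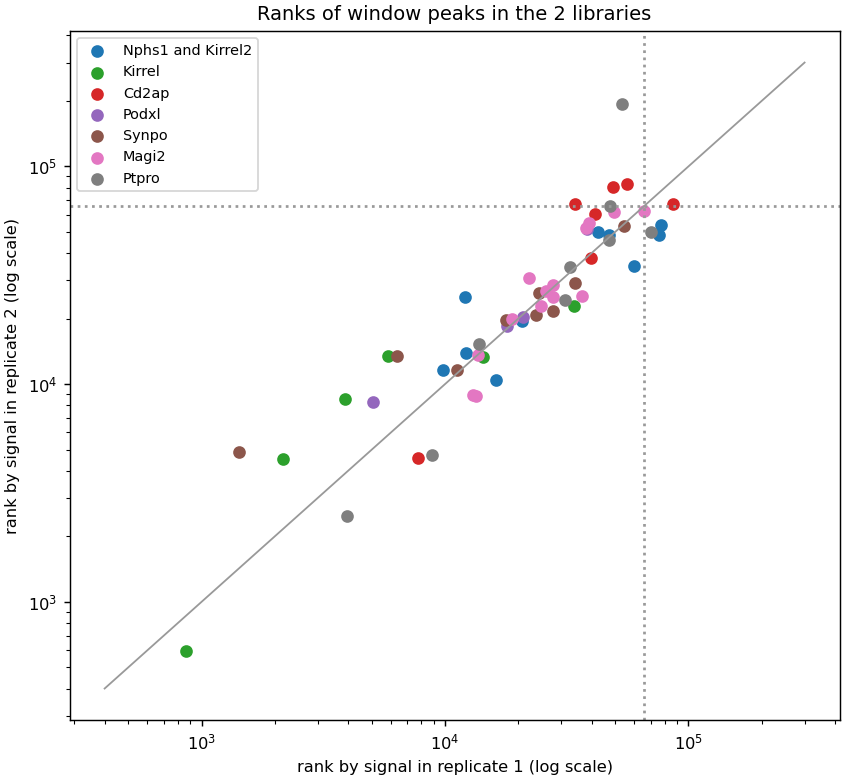
Rank by signal of each window peak in replicate 1 (x axis) and replicate 2 (y axis), both on log scales. Each of the 59 points is a peak matched in both libraries, coloured by gene, the line marks equal ranks and the dotted lines mark rank 65482. Most points lie near the line, and a Ptpro flank peak at rank 53509 in replicate 1 and 194543 in replicate 2 lies farthest from it.

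In the optimal list a peak lay within 1 kb of an annotated transcript start in 3 of the 8 slit diaphragm genes, Kirrel, Cd2ap and Magi2, against a background of 39.4% of all protein-coding genes. At the 5′ end of the gene record, its outermost start, it was 2 of the 8, Kirrel and Cd2ap, against 31.3%. With 8 genes the 95% Wilson interval of the first share runs from 13.7 to 69.4%, so it cannot be told from the background. With promoters of 2500 bp on each side the share was 6 of the 8, against 49.9%. At 1 kb the share was 4 of the 8 in the conservative list, against 36.6%. With the upper 50% of optimal peaks by signal it was 2 of the 8, against 19.8%. In the upper set of replicate 1 alone, without replicate 2, a promoter peak lay at 5 of the 8, against 39.1%. These were Nphs1, Kirrel2, Kirrel, Cd2ap and Magi2. In that of replicate 2 alone one lay at 4, Kirrel2, Kirrel, Synpo and Magi2, against 39.2%. The calls at Nphs1 and Synpo thus rest on 1 library each. The distance from the 5′ end to the nearest optimal peak had a median of 14618 bp over the 8 genes and 4740 bp over all protein-coding genes. It was 19 bp at Kirrel, 909 bp at Cd2ap, 11301 bp at Synpo, 14305 bp at Nphs1, 14930 bp at Kirrel2, 35901 bp at Podxl, 37787 bp at Magi2 and 46080 bp at Ptpro. The medians are shown for the optimal list only, and Nphs1 and Kirrel2, with 5′ ends 625 bp apart, each enter that of the 8. Several distances were shorter in other lists, as given below, and that of Cd2ap was longer in replicate 2's upper set, at 6388 bp. Over 10 kb from an optimal peak lay 6 of the 8 5′ ends, against 37.2% of all protein-coding genes, but this count depended on the list. With the upper 50% of optimal peaks by signal it was 7 of the 8, against 58.4%. It was 4 of the 8 in the conservative list, against 40.3%, since the Kirrel2 exon peak described below lay 1249 bp from the Kirrel2 5′ end and 1874 bp from that of Nphs1. It was 2 of the 8 in the upper set of replicate 1 alone, Magi2 and Ptpro, against 37.5%, and 2 in that of replicate 2 alone, Podxl and Magi2, against 38.2%. Magi2 was thus the only one of the 8 over 10 kb away in the optimal list, the conservative list and both upper sets. The Podxl 5′ end lay 7783 bp from a peak of replicate 1's upper set and the Ptpro 5′ end 8930 bp from one of replicate 2's.

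**Figure D2:**
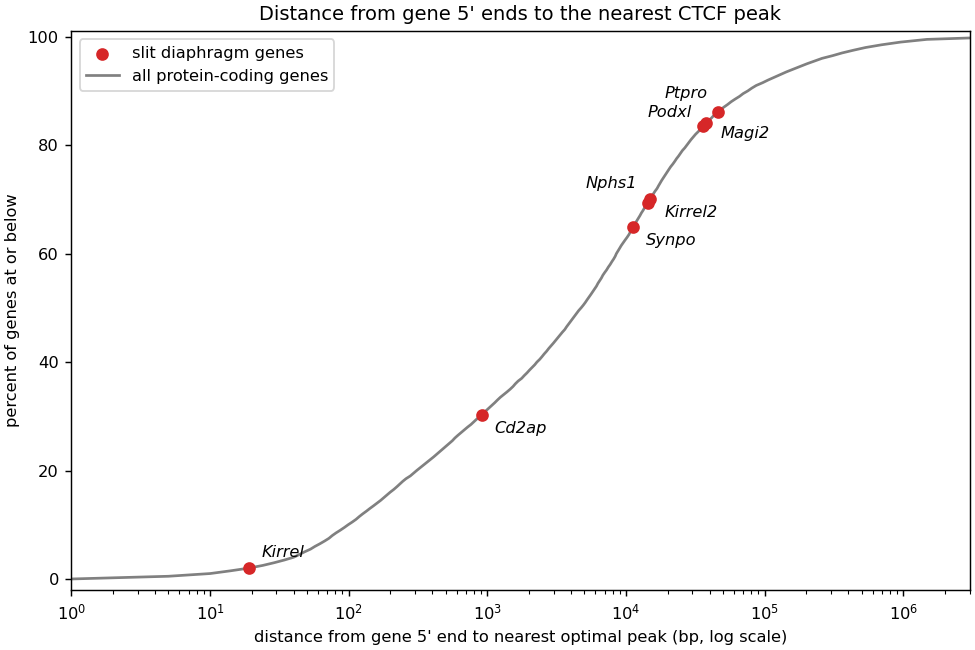
Distance from the gene 5′ end to the nearest optimal CTCF peak in bp (x axis, log scale) against the percent of genes at or below that distance (y axis). The red points are the 8 slit diaphragm genes and the grey curve is all 21755 protein-coding genes. Kirrel and Cd2ap lie below the median of 4740 bp and the other 6 genes above it.

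All 8 windows held peaks, as did 89% of windows of all protein-coding genes. The gene span itself held one in 7 of the 8, against 55.5%. Kirrel2, the shortest of the 8 at 10157 bp, had none. The 55.5% is over genes of any length and was not matched to the lengths of the 8. Window counts ran from 4 at Podxl to 15 at Magi2. Per 100 kb of window the density was 7.76 at Nphs1, 8.17 at Kirrel2, 5.42 at Synpo, 3.81 at Cd2ap, 3.06 at Kirrel, 2.89 at Ptpro, 2.77 at Podxl and 0.951 at Magi2, and the median over all genes was 4.45. The sparse window is that of the longest gene: Magi2 spans 1477757 bp. Introns held 35 of the 60 summits, intergenic sequence 19, coding exons 2, UTRs 3 and a non-coding exon 1. No share of all optimal peaks is given for these classes, and the windows are built around genes. The counts thus describe the windows only. The median signal percentile of the 60 was 60.6, against 42.6 for promoter peaks and 51.6 for all other peaks of the list.

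**Figure D3:**
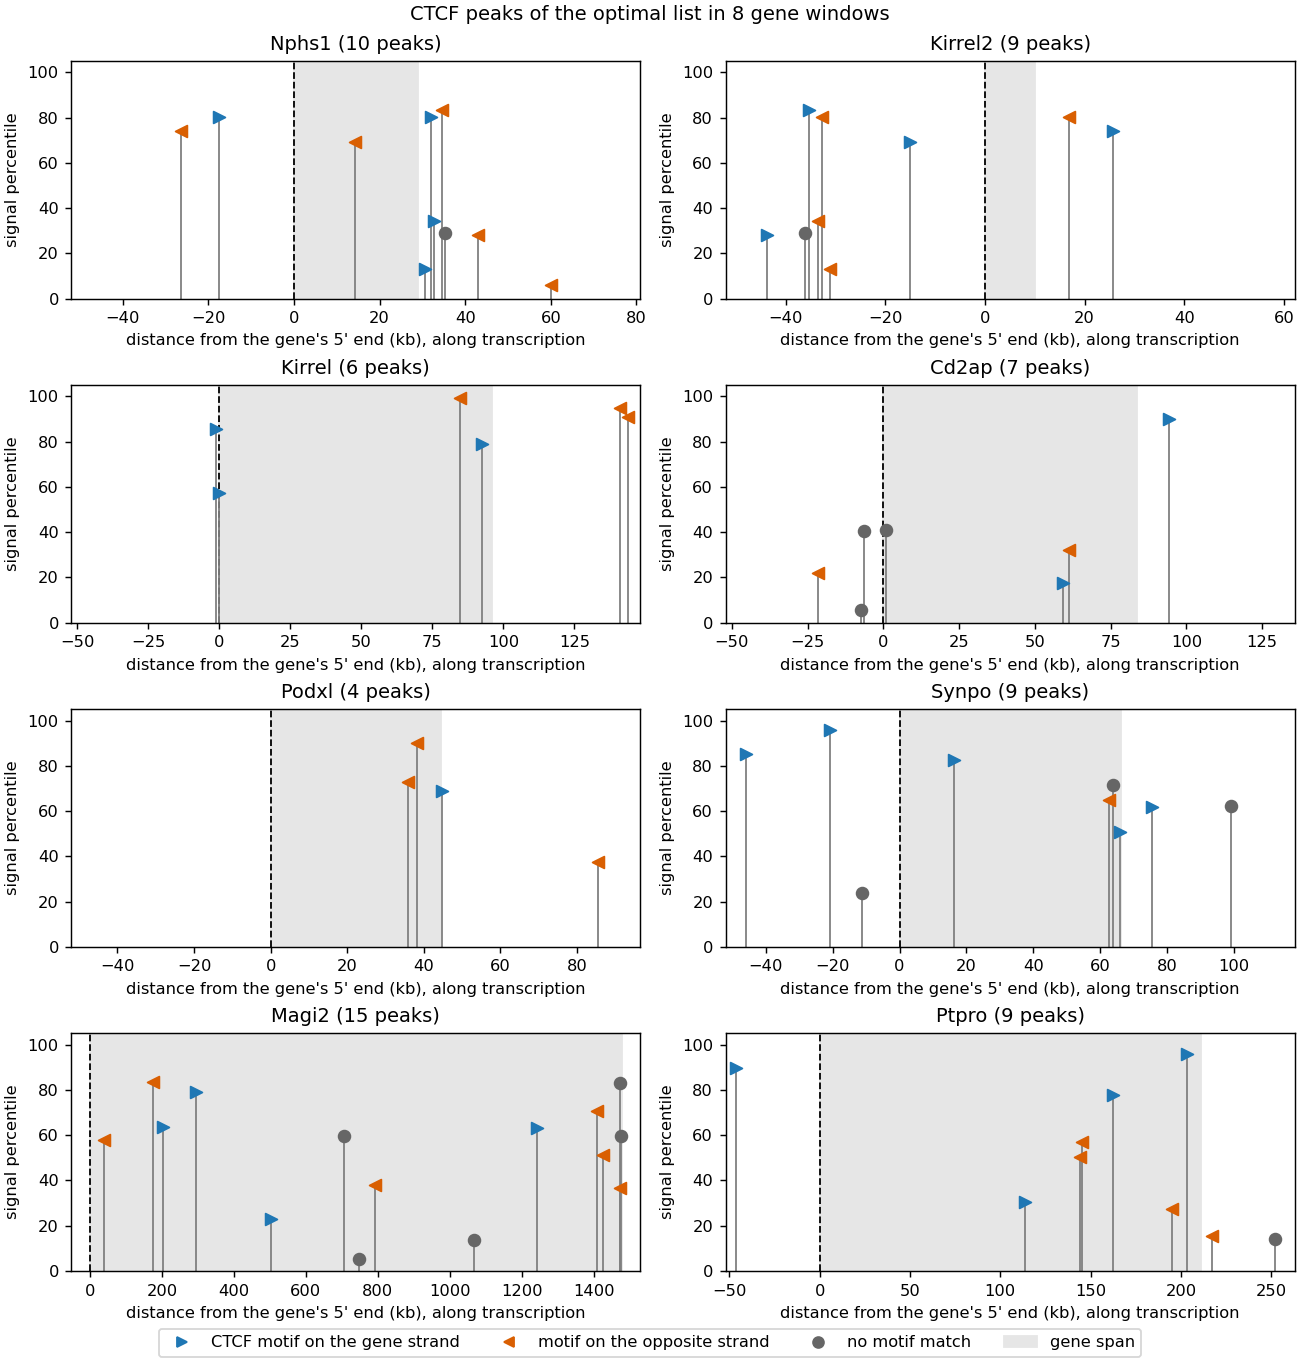
CTCF peaks in the window of each gene, by distance from the gene's 5′ end in kb along transcription (x axis) and signal percentile in the optimal list (y axis). Triangles point right where the CTCF motif match is on the gene's strand and left where it is on the opposite strand, circles have no match, grey marks the gene span and the dashed line the 5′ end. Summits sit at the 5′ end of Kirrel and near that of Cd2ap, and the other 6 dashed lines have none within 10 kb.

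Matches to a CTCF motif matrix of 19 bp lay within 100 bp of the summit in 47 of the 60 window peaks (78.3%, 95% Wilson interval 66.4 to 86.9). The share was 72.3% of all optimal peaks and 3.7% of windows 2 kb away from them. At a stricter score, exceeded at 1 of 100000 control positions, 17 of the 60 had a match, and 25 had one with a matrix learned with soft-masked bases included. No share of all optimal peaks is given at these settings, so neither count can be set against the whole list. The matrix was learned on chromosomes that hold none of the 8 genes. Of the 4 promoter peaks of the 8 genes the 2 at Kirrel had a match, against 45.3% of all promoter peaks of the list. Window peaks with a match had a median signal percentile of 65.1 and those without one 40.7. Many weak peaks of the lists have 1 fixed width of 330 bp. Of the window peaks 25 (41.7%) had this width, against 53.3% of the whole list. Their median percentile was 27.9 and their highest 57.0, and the other 35 had a median of 78.9. Summits in soft-masked sequence, the repeats of the reference genome, numbered 14 of 60 (23.3%), against 22% of the list.

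Nphs1 encodes nephrin, the long adhesion molecule of the slit diaphragm, and Kirrel2 encodes a member of the Neph family that binds it. The genes lie head to head on chromosome 7, Kirrel2 at chr7:30447534-30457690 on the reverse strand and Nphs1 at chr7:30458315-30487223 on the forward strand, so their 5′ ends are 625 bp apart. No optimal or conservative peak had its summit in that space. Of all divergent protein-coding pairs with 5′ ends up to 10 kb apart, 31.7% had an optimal peak between them, and 51% had one within 1 kb of either 5′ end. Of the 733 pairs up to 1 kb apart, a distance added after seeing the data, 11.6% did, and 50.2% had one within 1 kb of an end. Nphs1 and Kirrel2 had none there either. In the relaxed lists the space held 1 summit, at 30457799 in replicate 1, at rank 210762 of 300000. The pooled relaxed list and that of replicate 2 held none.

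RefSeq places the starts of both genes farther downstream, which widens the space between the starts to 2543 bp, and this space also held no optimal or conservative peak. In the relaxed lists it held 1 summit of the pooled list, 2 of replicate 1 and 1 of replicate 2. The RefSeq promoters (250 bases before the start to 50 after it, GRCm38.p6) are shown because neither thresholded list has a summit in them. Neither holds a match to the CTCF matrix on either strand, like most promoters: 7.22% of 32851 RefSeq promoters of this length hold one. No match says only that these letters are not in this window.
Nphs1 promoter, chr7:30459808-30460107, forward strand: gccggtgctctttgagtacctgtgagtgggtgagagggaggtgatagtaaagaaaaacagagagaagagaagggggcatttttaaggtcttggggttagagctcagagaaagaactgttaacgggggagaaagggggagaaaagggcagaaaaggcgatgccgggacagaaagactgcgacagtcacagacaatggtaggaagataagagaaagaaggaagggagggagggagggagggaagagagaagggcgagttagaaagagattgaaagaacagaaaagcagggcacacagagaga
Kirrel2 promoter, chr7:30457466-30457765, reverse strand: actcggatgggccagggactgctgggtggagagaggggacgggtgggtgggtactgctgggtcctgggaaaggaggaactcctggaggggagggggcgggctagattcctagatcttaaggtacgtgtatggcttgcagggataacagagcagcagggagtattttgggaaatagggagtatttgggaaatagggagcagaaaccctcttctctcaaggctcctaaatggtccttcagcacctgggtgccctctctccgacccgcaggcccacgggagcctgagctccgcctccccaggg

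A peak inside Kirrel2 differed between the authors' lists. Its summit, at 30456441 in chr7:30456276-30456605, lay in a coding exon 41 bp from the start of a shorter protein-coding Kirrel2 transcript. The conservative list held it at percentile 32.4 and the optimal list did not. It ranked 38533 in replicate 1 and 52018 in replicate 2, both within the upper sets, and 40521 in the pooled list. Of the 40521 pooled peaks at or above that rank, 25 (0.0617%) were missing from the optimal list. Of all 59444 conservative peaks, 4584 (7.71%) were missing from it. Counting this peak, Kirrel2 has a promoter peak in the conservative list and in the upper set of each library.

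A weaker summit lay on the Nphs1 side, at 30459472 in an intron of Nphs1, 253 bp from the start of another protein-coding Nphs1 transcript. This summit is in the space between the RefSeq starts. It ranked 61309 in the pooled relaxed list, 55811 in replicate 1 and 197278 in replicate 2. Only the upper set of replicate 1 held it, so its call rests on that library.

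The optimal peaks nearest to the shared promoter lay 16841 bp from the Kirrel2 5′ end and 14305 bp from the Nphs1 5′ end. On the Kirrel2 side the summit at 30440849, in an intron of Aplp1, was at percentile 80.5, with ranks of 12250 and 13850 in replicates 1 and 2. On the Nphs1 side the summit at 30472620, in an intron of Nphs1, was at percentile 69.4, with ranks of 20750 and 19480. It is the only optimal peak inside either gene. The 31771 bp between these summits hold both 5′ ends. The median distance between neighbouring optimal peaks was 14171 bp, and 71.3% of such distances were shorter than 31771 bp. Both values are over all distances, not only those that hold a 5′ end, so this stretch cannot be called unusually long. The match at 30440849 is on the forward strand and that at 30472620 on the reverse strand, so among optimal peaks they face each other across the promoter. The Kirrel2 exon peak of the conservative list has its match on the reverse strand and lies between 30440849 and the promoter. Counting it, the nearest matches on both sides of the promoter are on the reverse strand and do not face each other. The matches are shown with 5 bases on each side in lower case, the 19 bases of the match in capitals, each read along its own strand, together with the Kirrel2 exon peak and the highest-signal peak of the window.
Aplp1 intron, chr7:30440830-30440858, forward strand: aaagcCAGCCTCCAGGGGGCAGTGctggc
Kirrel2 coding exon, chr7:30456427-30456455, reverse strand: atgggCTGGCTCTAGGGGGCGAAAgagac
Nphs1 intron, chr7:30472603-30472631, reverse strand: tgtggAAACCTGAAGGGGGCAGCAgatcc
Prodh2 upstream, chr7:30492947-30492975, reverse strand: cacaaTGGCCAGAAGAGGGCATTAgatcc

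Beyond the 3′ end of Nphs1 lay 7 peaks, and 5 of them stood together between 30488826 and 30493717, next to Prodh2. Prodh2 encodes a proline dehydrogenase family enzyme. The highest of the window, at 30492956 and percentile 83.5, lay 666 bp from the Prodh2 5′ end and ranked 9774 in replicate 1 and 11599 in replicate 2. The peak at 30490411, at percentile 80.2, ranked 16224 and 10463. Between and beside them the peaks at 30488826, 30491125 and 30493717 were at percentiles 12.9, 34.1 and 29.2. Farther on, peaks at 30501333 in an intron of Prodh2 and at 30518447 were at percentiles 27.9 and 6.14. Those at 30488826 and 30518447 ranked below the upper set of replicate 1, at 76032 and 77174. On the other side of Kirrel2 the peak at 30432035, at percentile 74.3, ranked 12055 in replicate 1 and 25103 in replicate 2. The median of the highest percentile per window was 91.1 over all protein-coding genes, above the 83.5 of this locus.

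**Figure D4:**
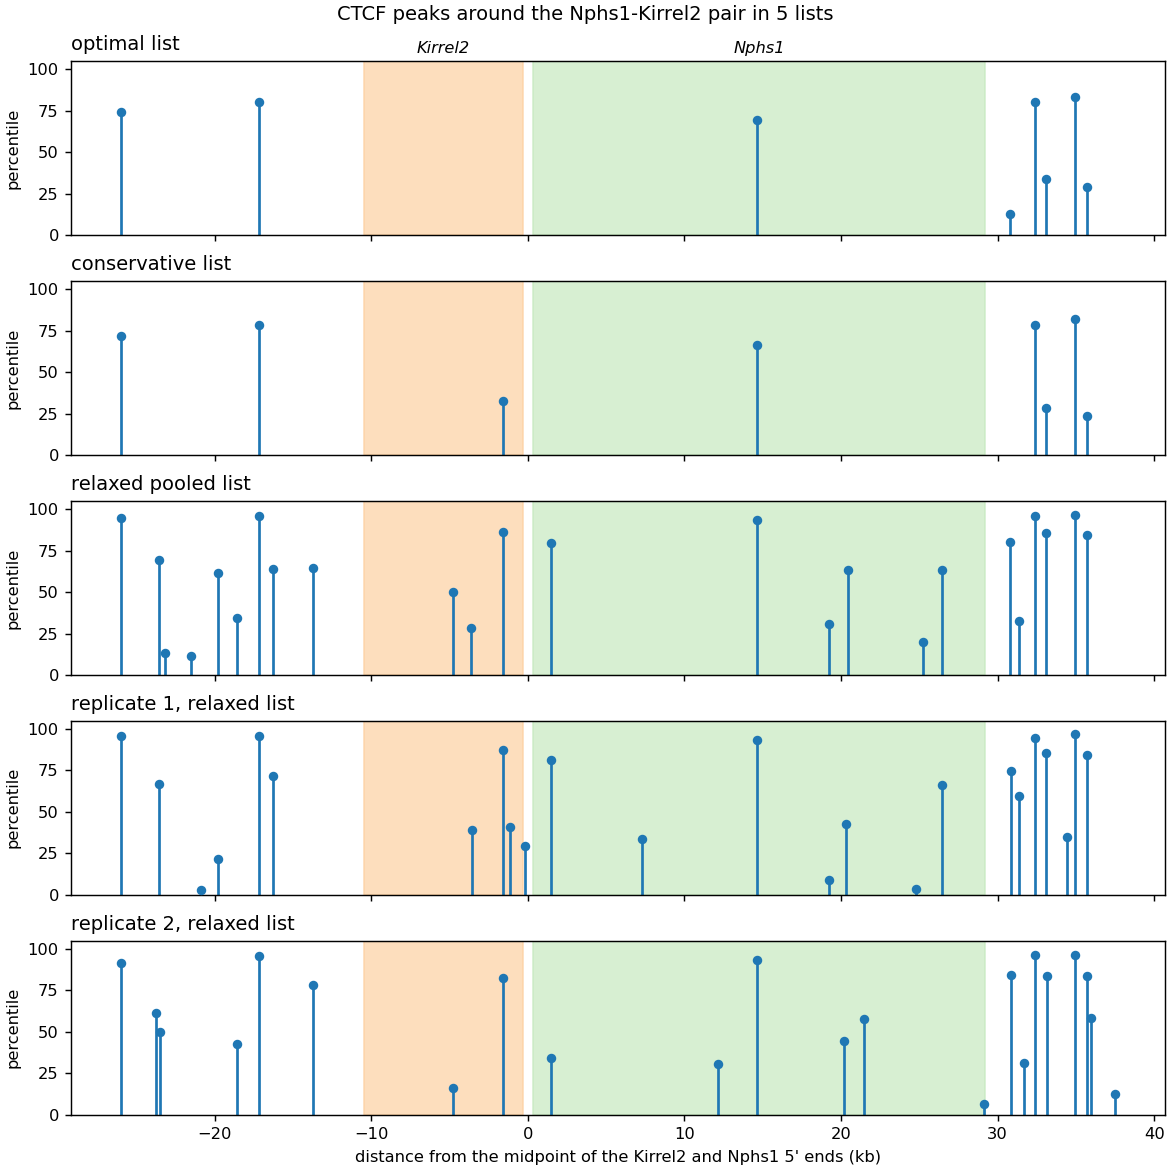
CTCF summits around the Nphs1-Kirrel2 pair, by distance from the midpoint of the 5′ ends in kb (x axis) and signal percentile within each list (y axis), in 5 lists. Shading marks Kirrel2 (left) and Nphs1 (right). The optimal list is empty between 30440849 and 30472620, the conservative list adds the Kirrel2 exon peak, and the relaxed lists add weaker summits.

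Kirrel encodes Neph1, the Neph family member that pairs with nephrin across the slit. In the optimal list it had CTCF at its promoter and the pair on chromosome 7 did not, although Kirrel2 did in the conservative list. On chromosome 3 (87078593 to 87174747, reverse strand) its window held 6 peaks, all with a motif match and all high enough to be in both upper sets. The promoter carried 2 of them. One lay 19 bp upstream of the 5′ end, at 87174766 and percentile 57.1, and ranked 33793 in replicate 1 and 22875 in replicate 2. The stronger one lay 993 bp upstream, at 87175740 and percentile 85.8, with ranks of 5831 and 13479. It stands just inside the 1 kb limit. The highest-signal peak of all 8 windows lay in an intron of Kirrel 84616 bp from the 5′ end, at 87090131 and percentile 99.1, with ranks of 863 and 594.

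The RefSeq promoter of Kirrel holds the match of the nearer peak, in capitals, and is shown for contrast with the pair above.
Kirrel promoter, chr3:87174488-87174787, reverse strand: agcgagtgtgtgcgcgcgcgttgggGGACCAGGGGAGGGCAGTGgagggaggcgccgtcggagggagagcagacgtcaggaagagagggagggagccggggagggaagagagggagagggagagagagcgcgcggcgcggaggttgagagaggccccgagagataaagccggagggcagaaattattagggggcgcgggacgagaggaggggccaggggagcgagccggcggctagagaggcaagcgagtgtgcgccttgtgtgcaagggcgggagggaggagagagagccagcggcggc
Both promoter matches are on the strand of the gene, and the intronic match is on the opposite strand, so they face each other over 84635 bp with no optimal peak between. The conservative list has 1 there, at 87130909 and percentile 5.54 of that list. A peak in a UTR near the 3′ end, at 87082414, was at percentile 78.9. The other 2 lay beyond the 3′ end, at percentiles 91.0 and 94.9.
Kirrel intron, chr3:87090114-87090142, forward strand: tactaTGACCACTAGGTGGCACTGtgggt
Kirrel 5′ end, chr3:87174739-87174767, reverse strand: ttgggGGACCAGGGGAGGGCAGTGgaggg
Kirrel upstream, chr3:87175735-87175763, reverse strand: atctcATATCAGCAGAGGGCACTAgagct

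Cd2ap encodes an adaptor that links nephrin to the actin cytoskeleton. On chromosome 17 (42792951 to 42876665, reverse strand) its window held 7 peaks, of which 3 reached both upper sets. The promoter peak, at 42875756 in an intron, 909 bp from the 5′ end, was weak: it was at percentile 40.8 and ranked 34081 in replicate 1 and 67415 in replicate 2. The rank in replicate 2 is just below its upper set, so with replicate 2 alone Cd2ap had no promoter peak. It had no motif match. Of the 3 peaks upstream, at percentiles 40.7, 5.50 and 22.2, only the farthest had a match. Beyond the 3′ end lay the strongest peak of the window, at 42782349 and percentile 89.9, with ranks of 7766 and 4602 and 40170 bp from the 5′ end of Adgrf2. The other 6 were all 330 bp wide and at percentiles of 40.8 or less.
Cd2ap 3′ flank, chr17:42782326-42782354, reverse strand: aaaagTGAACGCTAGGTGGCAGTCaaggc

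Magi2 encodes a PDZ-domain scaffold that binds nephrin, and is also a neuronal scaffold. On chromosome 5 (19227036 to 20704792, forward strand) all 15 peaks of its window lay inside the gene and neither flank had one. The 5′ end had no peak for 37787 bp, and in the relaxed lists only replicate 2 had one within 1 kb, at rank 79104. The promoter call rests on a different start. The peak at 20701599, at percentile 83.2, ranked 13366 in replicate 1 and 8832 in replicate 2 and lay 70 bp from the start of a non-coding transcript 1474633 bp from the 5′ end, close to the 3′ end of the gene. It had no motif match. The highest-signal peak, at 19401199 in an intron and percentile 83.5, ranked 13070 and 8907. In all, 10 of the 15 had a match, 4 on the strand of the gene and 6 on the other, and percentiles ran down to 5.06. The lowest, at 19974037, is the one that replicate 2 lacked. The conservative list added 2 weak peaks in an intron and 1 beyond the 3′ end, at percentiles of 19.9 or less in that list. The longest stretch without an optimal peak inside the gene was 276420 bp.
Magi2 intron, chr5:19401185-19401213, reverse strand: catgaTTGCCACTAGATGGCAGCAtaaca

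Podxl encodes podocalyxin, the charged sialomucin of the apical foot process surface. On chromosome 6 (31519488 to 31563981, reverse strand) it had the fewest peaks, 4, and none upstream of the 5′ end. All 4 had a match and reached both upper sets. The 2 inside the gene lay in introns 35901 and 38293 bp from the 5′ end. The farther one, at 31525688, was the highest of the window, at percentile 90.0 with ranks of 5073 in replicate 1 and 8280 in replicate 2. The nearer one, at 31528080, was at percentile 73.1. A peak at 31519370, just beyond the 3′ end, was at percentile 68.7. The pooled relaxed list had a summit 122 bp upstream of the 5′ end, at rank 165716, and it was not in the optimal list.
Podxl intron, chr6:31525670-31525698, forward strand: ggcagTGACCAGTAGAGGGCAGCCacctc

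Ptpro encodes a receptor tyrosine phosphatase of the apical podocyte membrane, also found on neurons. On chromosome 6 (137252319 to 137463233, forward strand) its window held 9 peaks, 8 of them with a match and 6 that reached both upper sets. Its 5′ end was the farthest from an optimal peak among the 8 genes, 46080 bp from a flank peak at 137206239 and percentile 89.9, and in the other direction 113494 bp from the first intronic peak. The highest-signal peak of the window was intronic, near the 3′ end, at 137455825 and percentile 95.9, with ranks of 3958 in replicate 1 and 2477 in replicate 2. The second highest inside the gene, at 137414719, was at percentile 77.7 with ranks of 13790 and 15348. The last peak, at 137504318 in an intron of Eps8, had ranks of 53509 and 194543.
Ptpro intron, chr6:137455812-137455840, forward strand: ttcaaGAACCACTAGATGTCAGTAtaact

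Synpo encodes synaptopodin, an actin-associated protein of foot processes. On chromosome 18 (60593973 to 60660142, reverse strand) its 9 window peaks all reached both upper sets. None lay within 1 kb of a Synpo start in the optimal list. The upper set of replicate 2 had a peak at 60600306, at rank 57636, 191 bp from the start of a non-coding transcript, and that of replicate 1 had none there. The highest-signal peak lay 20930 bp upstream of the 5′ end, at 60681072 and percentile 95.7, with ranks of 1428 in replicate 1 and 4902 in replicate 2. Inside the gene the highest was intronic, at 60643718 and percentile 82.6, with ranks of 11184 and 11570. Near the 3′ end 3 peaks, in an intron, a coding exon and a UTR, were at percentiles 65.1, 71.5 and 50.8. Of the 6 matches 5 were on the strand of the gene.

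Among optimal peaks, the 5′ ends of 5 of the 8 genes lay between the summits of peaks whose CTCF motifs faced each other. Left and right were set by the summit. At Kirrel the 5′ end, at 87174747, lies inside the right-hand match, at 87174744 to 87174762. The nearest peak with a match to the left of the 5′ end had it on the forward strand, and the nearest to the right on the reverse strand, at Nphs1, Kirrel2, Kirrel, Podxl and Magi2, against a background of 28.3% of protein-coding genes. Nphs1 and Kirrel2 share their pair of peaks. In the conservative list they lost it through the Kirrel2 exon peak while Cd2ap gained one, so the count was 4 of the 8, against 28.5%. With the upper 50% of optimal peaks by signal it was 6 of the 8, against 30.8%. In the upper set of replicate 1 alone it was 3 of the 8, Kirrel, Podxl and Magi2, against 28.1%. In that of replicate 2 alone it was 5, Kirrel, Cd2ap, Podxl, Magi2 and Ptpro, against 28.2%. The paired summits lay 31771 bp apart at Nphs1 and Kirrel2, 84635 bp at Kirrel, 111583 bp at Podxl and 347716 bp at Magi2. The right summit at Podxl, 31639663, and the left one at Magi2, 18917107, lie outside the windows and are not among the 60 peaks. Among optimal peaks, the nearest matches at Cd2ap pointed away from each other, and at Synpo and Ptpro they pointed the same way. The counts were not repeated at the stricter motif limit or with the other matrix, where 17 and 25 of the 60 window peaks had a match. Facing motifs were looked at after the peaks had been seen, and loops were not measured.

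The CpG content of 5′ ends with a peak overlapped that of 5′ ends without one. The ratio of observed to expected CpG within 500 bp of the 5′ end was 0.660 at Kirrel and 0.877 at Cd2ap, which had a peak there. It was 0.822 at Podxl, 0.717 at Magi2 and 0.617 at Ptpro, which had none. It was 0.310 at Kirrel2, 0.182 at Synpo and 0.158 at Nphs1, below the median of 0.558 over all protein-coding genes. The relaxed pooled list had a summit within 1 kb of the 5′ end at 5 of the 8 genes, against 65.8%. Those without one were Nphs1, Kirrel2 and Magi2.

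Among 23 other genes of the slit diaphragm and podocyte, 16 had a promoter peak at any annotated start and 10 at the 5′ end of the gene record, against the same 39.4 and 31.3%. This list was chosen with results of these data known, and the shares were not tested. With the upper 50% of optimal peaks by signal the count was 8, against 19.8%. Promoter peaks that reached both upper sets included those of Iqgap1, an actin scaffold, at percentile 95.3, Fat1, a giant cadherin, at 86.7, and Kirrel3, another Neph family gene, at 71.9. The Iqgap1 peak lay 418 bp from an annotated start inside the gene. From the Iqgap1 5′ end the nearest optimal peak was 15556 bp away. Tjp1, Prkci, Plce1 and Crb2 were among the 7 without one. The median distance from 5′ end to nearest optimal peak over the 23 was 1158 bp.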

How the data were processed

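CTCF ChIP-seq peaks were analysed from 2 libraries of newborn mouse kidney. The authors deposited 5 narrowPeak lists on mm10. By the notes that came with them, each library has a relaxed list, another relaxed list pools the libraries, and 2 lists (conservative, optimal) were thresholded by irreproducible discovery rate (IDR). All derive from the libraries' alignments and 1 further alignment file. No source used here names the aligner, the peak caller, the filters or the IDR threshold. The deposited signal value of a peak depends on its list, so it served only as rank or percentile within that list. The deposited q-value column, on the −log10 scale, was not used for ranking. The deposited summit offset gave each position. Without read counts in the lists the depth is unknown.

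Summits were placed against GENCODE M21 on chromosomes 1 to 19 and X, with GRCm38.p6 sequence, the same assembly. An optimal peak was matched to the library peak that overlapped it by at least 1 bp and had the nearest summit. Every annotated start of a gene counted for promoter peaks. The motif matrix (19 bp) was started from the CTCF core consensus and learned from optimal peaks on 14 chromosomes without a member gene, soft-masked bases left out. The limit for a match was the score exceeded at 1 of 10000 control positions, 2 kb from the summits. Motif learning and scanning were tested on simulated sequences. Python 3.11.15, numpy 2.4.6, pandas 2.3.3, scipy 1.17.1, pysam 0.24.0, samtools 1.23.1 and matplotlib 3.10.9 were used. No p-value was computed. Wilson intervals cover counting error only.

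The 8 genes and the further list were chosen with earlier results of these data known. The text names all peaks of the Nphs1-Kirrel2 pair, and of each other gene the promoter peaks and the highest-signal peak of window and gene body. Of the 4 further genes whose promoter peak in both upper sets was highest, 1 is not reported here and the others are named, with 4 genes without one. Peaks named beyond these were chosen after their values were seen. Alternatives were another list, a stricter signal limit, either library alone, other flanks, promoter widths, start sites, pair distances, motif scores and matching rules.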

Additional observations from a re-analysis of the deposited data

How the results depend on the processing

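The alternatives were run on 11 results, of which the counts of distant 5′ ends and of facing motifs were added after seeing the data. For these added counts only the list, the signal limit or the library was varied. With the upper 50% of optimal peaks by signal, windows held 38 peaks with a median percentile of 52 within that part, other podocyte genes with a promoter peak numbered 8, the background share was 19.8% and the share of divergent pairs 19.2%. In that part 7 of the 8 5′ ends lay over 10 kb from a peak, against 58.4% of protein-coding genes. Between facing motifs lay 6, against 30.8%. With the conservative list the background share of genes with a promoter peak was 36.6%. With promoters of 2500 bp on each side 6 of the 8 genes had a promoter peak and the background share was 49.9%. With gene 5′ ends only, 10 other podocyte genes had one and the background share was 31.3%. Divergent pairs had a peak between them in 21.5% up to 5 kb apart, 42.4% up to 20 kb and, added after seeing the data, 11.6% up to 1 kb. The motif count was 17 of 60 with a score limit exceeded at 1 of 100000 control positions and 25 with a matrix learned with soft-masked bases. Neither has a share of all optimal peaks beside it, so whether the fall is particular to these windows cannot be told. The cause was not tested.

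With either library left out, windows held 66 to 67 peaks, promoter peaks lay at 4 to 5 of the 8 genes and 15 to 16 of the other podocyte genes, the background share was 39.1 to 39.2%, the median percentile 52.5 to 59.3, matches 49 to 50, and the share of divergent pairs 30.9 to 31.4%. The 5′ ends over 10 kb from a peak then numbered 2 of the 8 with either library alone, against 6 in the optimal list, and those between facing motifs 3 to 5, against 5. The genes gained were Kirrel2 with either, Nphs1 with replicate 1 alone and Synpo with replicate 2 alone, and Cd2ap was lost with replicate 2 alone. No peak lay between the Nphs1 and Kirrel2 5′ ends in the conservative list, in the upper-signal part or in either library's upper set, nor between their RefSeq starts in the optimal list. No paired analysis was possible because the 2 libraries form 1 group. Depth is unknown, so what it limits could not be measured.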

Other observations

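Several matches of the windows were followed by the same 5 letters, gatcc. This was noticed in the printed sequences. Of the 47 matches 9 were followed by them, 4 in the shared Nphs1-Kirrel2 window, 3 at Cd2ap and 1 each at Magi2 and Synpo. Among all optimal peaks with a match the share was 7.62%, and it was 25.1% where the summit lay in soft-masked sequence and 0.983% elsewhere. The 9 had a median signal percentile of 32.3 and the other matches of the windows 71.9. Over the whole list the medians were 36 and 61. Where the summit lay in soft-masked sequence they were 36 and 38.2, and elsewhere 36.4 and 67.9. Repeat classes were not annotated here.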
